A study of Mus musculus with 9 samples.

Results

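The 7 genes described here are 4 members of the Zic family (Zic1, Zic2, Zic4 and Zic5) and 3 genes of the roof plate and dorsal neural tube (Msx3, Lmx1a and Gdf7). They were taken by gene symbol from the 54532 genes of a count table, and each matched 1 row. RNA was counted in 9 libraries of cells sorted from neural tube organoids, small neural cultures grown clonally in Matrigel from R1 mouse embryonic stem cells. All cells carried FoxA2-Venus, a fluorescent reporter of the floor plate factor Foxa2, and were sorted as high or low through a GFP filter set. RA GFP- and RA GFP+ cells had been grown with retinoic acid (RA), and SAG GFP+ cells in medium named after SAG, an agonist of the hedgehog transducer Smoothened. Each group has 3 biological replicates, harvested 66 h after the medium change at Day 2. No group of GFP- cells from SAG medium is listed, so sort and medium differ together between SAG GFP+ and RA GFP-.

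The Zic genes encode zinc finger transcription factors of a family related to the GLI effectors of hedgehog signalling. In the neural tube they are known for dorsal expression and for roles in neural tube closure, neural crest and progenitor growth. The roof plate is the signalling centre at the dorsal midline. There the LIM homeodomain factor Lmx1a is a main determinant of roof plate fate and the BMP family ligand Gdf7 is one of its secreted products. Msx3, an Msh family homeodomain repressor, is found in progenitors of the dorsal neural tube, and Msx1 and Msx2 in the roof plate itself. The floor plate, which expresses Foxa2 and Sonic hedgehog, lies at the opposite pole, so the sort compares cells by a ventral midline marker.

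The 4 Zic genes lie as 2 pairs of neighbours (GRCm38, GENCODE M21). On chromosome 9, Zic1 (ENSMUSG00000032368, chr9:91358058-91365810, minus strand) and Zic4 (ENSMUSG00000036972, chr9:91362413-91389348, plus strand) are on opposite strands, and their annotated spans overlap by 3398 bases. On chromosome 14, Zic5 (ENSMUSG00000041703, chr14:122456795-122465677, minus strand) and Zic2 (ENSMUSG00000061524, chr14:122475435-122479852, plus strand) point away from each other with 9757 bases between them. Zic1 and Zic4 share 60 exon bases on opposite strands, which is 1.054% of the exon bases of Zic1 and 0.581% of those of Zic4. Zic4 shares a further 468 exon bases, 4.528% of its own, with Gm37477 on the other strand, which has 45 counts in all against 741 for Zic4. No stretch of 50 bases is shared in the same orientation between any 2 of the 4 Zic genes' transcripts, while 14 are shared in opposite orientation by Zic1 and Zic4. Because the strand setting of the counting is not given in the sources used here, the few reads from these shared bases cannot be assigned. The other 3 genes are Msx3 (ENSMUSG00000025469, chr7:140046157-140049089, minus strand), Lmx1a (ENSMUSG00000026686, chr1:167689237-167848741, plus strand) and Gdf7 (ENSMUSG00000037660, chr12:8297918-8301954, minus strand).

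The promoters of Zic1, Zic5 and Msx3, all 3 lower in GFP+ than in GFP- cells under RA, are shown so that their sequence can be read beside that shared direction. They are the RefSeq promoter sequences of GRCm38.p6 upstream of the start site, without bases that GENCODE M21 annotates as exon. Capitals mark the SMAD match in Zic1 and the retinoic acid receptor match in Zic5, and E boxes are left in lower case.
Zic1 (chr9:91365811-91366018, minus strand): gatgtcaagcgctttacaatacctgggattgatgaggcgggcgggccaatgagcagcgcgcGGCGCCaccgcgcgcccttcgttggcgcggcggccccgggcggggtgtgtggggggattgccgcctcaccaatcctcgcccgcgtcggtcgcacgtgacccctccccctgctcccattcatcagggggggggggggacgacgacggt
Zic5 (chr14:122465678-122465908, minus strand): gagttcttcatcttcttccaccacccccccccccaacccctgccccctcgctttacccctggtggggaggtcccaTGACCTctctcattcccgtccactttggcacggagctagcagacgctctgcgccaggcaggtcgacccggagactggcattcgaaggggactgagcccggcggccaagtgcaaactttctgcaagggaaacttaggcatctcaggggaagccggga
Msx3 (chr7:140049090-140049338, minus strand): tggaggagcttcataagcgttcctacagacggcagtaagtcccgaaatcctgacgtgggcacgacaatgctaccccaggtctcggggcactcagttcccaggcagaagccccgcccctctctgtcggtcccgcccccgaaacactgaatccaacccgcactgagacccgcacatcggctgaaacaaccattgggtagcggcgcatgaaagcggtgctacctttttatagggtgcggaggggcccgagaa

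Promoters of 6 of the 7 genes were found, Zic2 being the other, and their 250 bases before the start site were searched on both strands for 5 motifs. The SMAD motif GGCGCC, bound by factors that carry BMP signals, was in the Zic1 promoter at position -189 and in 9.586% of all 32851 promoters. The retinoic acid receptor core motif AGGTCA was in the Zic5 promoter at -175, read as TGACCT, and in 14.02% of all promoters. Neither the GLI motif GACCACCCA, held by 0.2253% of all promoters, nor the TCF/LEF motif CTTTGA, held by 13.83%, was in any of the 6. The E box CANNTG was in those of Zic1, Zic4, Zic5 and Lmx1a and in 66.22% of all promoters. The Msx3 stretch held none of the 5 motifs. These matches describe letters only.

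Total counts ranged from 25281871 to 29763765 per library, so that 1 count was worth about 0.0336 to 0.0407 CPM. CPM stands for counts relative to a library's total after TMM scaling. Across genes, log2 CPM correlated at 0.970 to 0.986 within groups and at 0.887 to 0.951 between groups. Foxa2, the gene behind the reporter, was at 1.33 to 2.51 CPM in the RA GFP- libraries, 132.8 to 184.4 in RA GFP+ and 204.6 to 326.4 in SAG GFP+, higher in each GFP+ than in each GFP- library. Of the 7 genes, 6 passed the filter on low counts and were tested among 16772 genes with edgeR's quasi-likelihood test, with Benjamini-Hochberg adjusted p, and a gene is called where this p is under 0.05. Gdf7 was too low to test. Each log2 fold change has its standard error (SE) beside it, and means are mean ± SD (n = 3). P-values measure the spread between these 3 replicates a group, estimated over all 9 libraries at once. A comparison of 2 groups thus also carries the spread of the group left out of it. Overlap of libraries is described gene by gene, and the share of all genes without overlap was not counted. In bulk RNA, fewer cells of a type and less RNA per cell cannot be told apart.

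Set per kilobase of exon, the scale on which levels of different genes can be compared, Zic2 and Zic1 led the 7 genes in all 3 groups, while the place of Msx3 differed between groups. In RA GFP- cells Zic2 stood at 20.6 ± 4.18 CPM per kb and Zic1 at 19.1 ± 3.14, and the libraries of these neighbours overlapped. Msx3 followed at 7.38 ± 2.07 and Zic5 at 3.95 ± 0.575 CPM per kb, each apart from the gene above it in all libraries. Zic4 (0.613 ± 0.269), Lmx1a (0.303 ± 0.225) and Gdf7 (0.290 ± 0.191 CPM per kb) were lowest and overlapped. In RA GFP+ cells the order began with Zic2 at 10.6 ± 0.471 and Zic1 at 5.65 ± 3.56, which no longer overlapped. Msx3 (1.56 ± 0.660) and Zic5 (1.06 ± 0.361 CPM per kb) overlapped, and Gdf7, Zic4 and Lmx1a lay between 0.125 and 0.147 with overlapping libraries. In SAG GFP+ cells Zic2 (14.9 ± 7.77), Zic1 (6.29 ± 2.17) and Zic5 (1.90 ± 1.20 CPM per kb) did not overlap. Msx3 then came after them at 0.290 ± 0.157, overlapping Gdf7 at 0.157 ± 0.0636, and Lmx1a was last at 0.0308 ± 0.0184 CPM per kb, below every library of Zic4 at 0.140 ± 0.0271. Lmx1a and Gdf7 rested on few counts. In RA GFP-, RA GFP+ and SAG GFP+ cells the groups held 85, 36 and 8 counts for Lmx1a and 33, 18 and 17 for Gdf7.

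**Figure D1:**
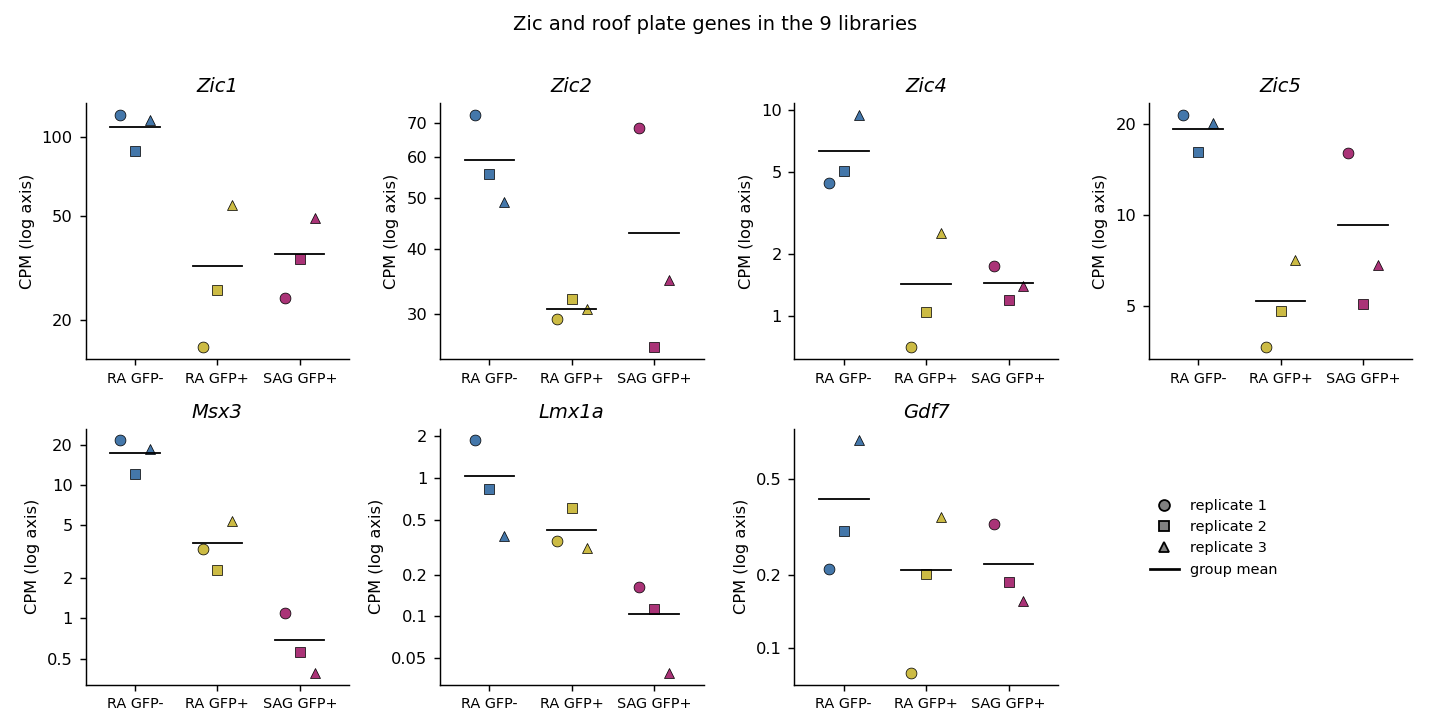
Level of each of the 7 genes in CPM on a log axis (vertical) in the 9 libraries by group (horizontal); symbols are replicates and lines are group means. Zic1, Zic2, Zic4, Zic5 and Msx3 are higher in each RA GFP- library than in each RA GFP+ library, and Msx3 and Lmx1a are lowest in the SAG GFP+ libraries. How many of all genes separate in this way was not counted.

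The first question was whether, within RA medium, the genes differ between cells that were low and high for the Foxa2 reporter. Of the 6 tested genes, 5 were lower in RA GFP+ than in RA GFP- cells (Msx3, Zic5, Zic1, Zic4 and Zic2) and 0 were higher, also at an unadjusted p under 0.05 and with DESeq2. Among all tested genes, 16.9% were called, 8.49% higher and 8.43% lower. The median log2 fold change of the 6 genes was -1.82, against -0.018 over all genes tested.

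Zic1, known from dorsal progenitors, was at 121.5, 88.1 and 115.9 CPM in the RA GFP- libraries and at 15.8, 26.0 and 54.8 in the RA GFP+ libraries. All RA GFP- libraries lay above all RA GFP+ libraries, and RA GFP+ replicate 3 was highest of its group. The log2 fold change was -1.75 (SE 0.38, adjusted p = 0.00873), and without RA GFP+ replicate 3 it was -2.37 (SE 0.31, adjusted p = 0.000697). Zic4, its neighbour on chromosome 9, was at 4.41, 5.07 and 9.52 CPM in RA GFP- and at 0.706, 1.04 and 2.55 in RA GFP+. The groups did not overlap, and replicate 3 was again the highest of both groups. The fall was 2.14 on the log2 scale (log2 fold change -2.14, SE 0.48, adjusted p = 0.00962), with -2.84 (SE 0.47, adjusted p = 0.00245) without RA GFP+ replicate 3.

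Zic5 was at 21.5, 16.2 and 20.3 CPM in RA GFP- and at 3.65, 4.81 and 7.12 in RA GFP+, with no overlap. Its log2 fold change was -1.89 (SE 0.40, adjusted p = 0.00683). Zic2, the gene next to Zic5 and a factor needed for forebrain midline and neural tube closure, showed the smallest fall of the 4. It was at 72.6, 55.7 and 49.3 CPM in RA GFP- and at 29.3, 32.0 and 30.6 in RA GFP+, again without overlap, and the RA GFP+ libraries lay close together. Its log2 fold change was -0.95 (SE 0.29, adjusted p = 0.0443). This call was lost when any one of the 6 RA libraries was left out, with log2 fold changes of -0.77 to -1.07 and adjusted p of 0.0514 to 0.153. The call was kept with the 2 RA groups fitted alone (-0.96, SE 0.16, adjusted p = 0.00337). Without SAG GFP+ replicate 1 it was also kept (-0.95, SE 0.17, adjusted p = 0.00306).

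Msx3 differed between the RA populations by about as much as Zic4. It was at 21.6, 12.0 and 18.5 CPM in RA GFP- and at 3.33, 2.32 and 5.37 in RA GFP+, with a log2 fold change of -2.24 (SE 0.39, adjusted p = 0.00234). The lowest RA GFP- library stood above the highest RA GFP+ library. Lmx1a was at 1.87, 0.838 and 0.381 CPM in RA GFP-, from 53, 22 and 10 counts, and at 0.353, 0.605 and 0.314 in RA GFP+, from 9, 18 and 9 counts. These groups overlapped, RA GFP- replicate 1 standing apart, and the difference of -1.27 (SE 0.63, adjusted p = 0.205) was not called. Without that library it was -0.51 (SE 0.63, adjusted p = 0.691). Lmx1a passed the filter only through the RA GFP- libraries, so its values should be read with its counts. Gdf7 had 6, 8 and 19 counts in RA GFP- and 2, 6 and 10 in RA GFP+, which is 0.212, 0.305 and 0.723 against 0.0784, 0.202 and 0.349 CPM. The groups overlapped, and the ratio of summed levels was 0.525 (exact 95% interval 0.279 to 0.961, counting error only). Fitted with edgeR without the filter on low counts, Gdf7 had a log2 fold change of -0.93 (SE 0.83, adjusted p = 0.59).

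Same-numbered RA libraries deviated together across genes, so the difference can also be read within numbers. In all 3 pairs Zic1, Zic2, Zic4, Zic5 and Msx3 were lower in GFP+ cells, as were Lmx1a and Gdf7, both from few counts. The share of all genes that were lower in all 3 pairs was not counted, so this describes direction only. The log2 differences for numbers 1, 2 and 3 were -2.95, -1.76 and -1.08 for Zic1, and -1.31, -0.80 and -0.69 for Zic2. They were -2.64, -2.28 and -1.90 for Zic4, and -2.56, -1.75 and -1.51 for Zic5. Msx3 gave -2.69, -2.38 and -1.79. The pair numbered 1 thus held the largest difference and the pair numbered 3 the smallest for these 5 genes. With the replicate number as a block in a fit of the 2 RA groups, the same number of the 7 genes was called (5), while over all genes 5240 rather than 2838 were. In that blocked fit Zic2 had a log2 fold change of -0.94 (SE 0.13, adjusted p = 0.000426). Without the block, the fit of the 2 RA groups gave Zic2 -0.96 (SE 0.16, adjusted p = 0.00337). That fit called 3010 genes over all. In the fit of all 3 groups with no block, 1783 genes were called without RA GFP+ replicate 2.

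**Figure D2:**
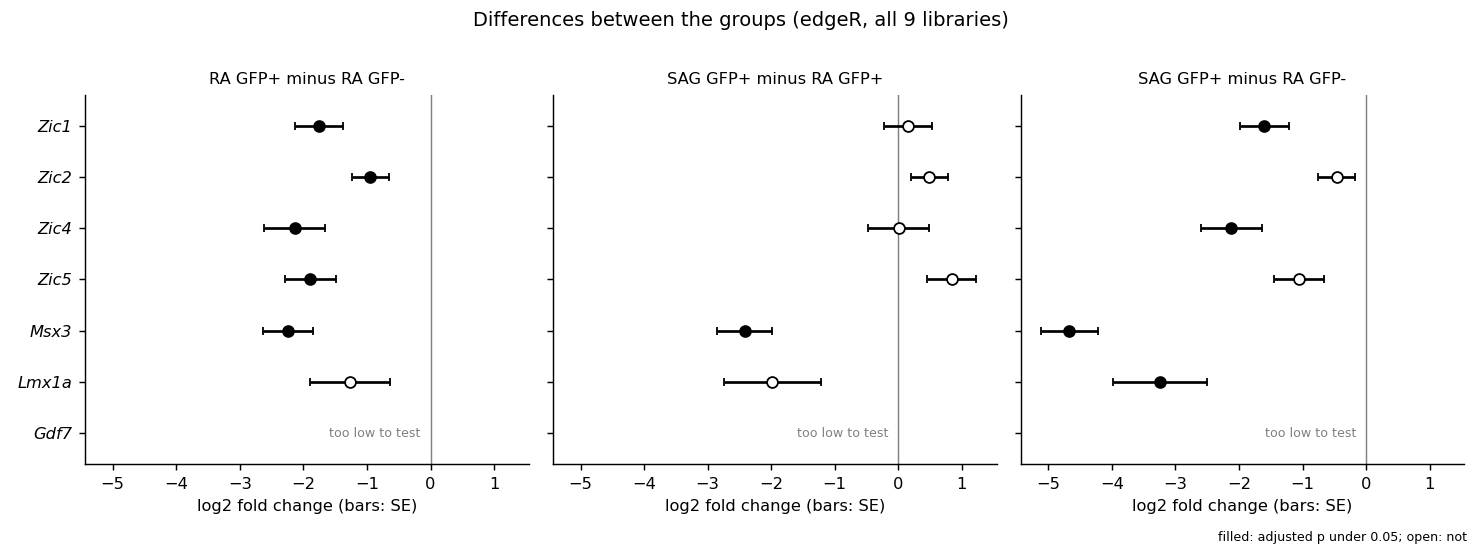
Log2 fold change of each gene (horizontal, bars are SE) in the 3 comparisons; filled points have an adjusted p under 0.05 and Gdf7 was too low to test. In the first panel 5 genes are filled and below 0; in the second Msx3 alone is filled, at -2.42.

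The second question was whether the genes differ between GFP+ cells from SAG and from RA medium. Here 1 of the 6 tested genes was lower in SAG GFP+ cells, Msx3, and 0 were higher. At an unadjusted p under 0.05, 2 genes were lower and 0 higher, and with DESeq2 1 was lower and 0 higher. Of all genes tested, 24.5% were called, 9.78% higher and 14.8% lower. The median of the 6 genes was 0.08, against -0.017 over all genes.

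Msx3 was at 1.10, 0.562 and 0.389 CPM in the SAG GFP+ libraries, each below the lowest RA GFP+ library at 2.32. The log2 fold change was -2.42 (SE 0.44, adjusted p = 0.00194), and it was called under each of the 16 alternative settings. Lmx1a was at 0.163, 0.112 and 0.0389 CPM in SAG GFP+, from 4, 3 and 1 counts, below every RA GFP+ library. Its difference of -1.98 (SE 0.77, adjusted p = 0.0828) was not called.

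The 4 Zic genes did not pass the test between the GFP+ groups, and their libraries overlapped. Zic1 was at 24.3, 34.3 and 48.9 CPM in SAG GFP+, with a difference of 0.15 (SE 0.38, adjusted p = 0.803), and Zic4 at 1.75, 1.20 and 1.40 CPM, with 0.01 (SE 0.48, adjusted p = 0.988). RA GFP+ replicate 3 was highest for both, and leaving it out gave differences of 0.78 (adjusted p = 0.0858) and 0.72 (adjusted p = 0.288). Zic2 was at 68.3, 25.8 and 34.8 CPM in SAG GFP+, with a difference of 0.49 (SE 0.29, adjusted p = 0.251). Zic5 was at 16.0, 5.06 and 6.81 CPM, with 0.84 (SE 0.39, adjusted p = 0.145). SAG GFP+ replicate 1 stood above the other two for Zic2 and Zic5, and without it the Zic5 difference was 0.21 (SE 0.29, adjusted p = 0.617). Without the filter on low counts, the Zic5 difference of 0.83 was called (adjusted p = 0.0269). Gdf7 had 8, 5 and 4 counts in SAG GFP+, or 0.326, 0.187 and 0.156 CPM. Its ratio to RA GFP+ was 1.03 (exact 95% interval 0.499 to 2.12), with overlapping libraries.

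The comparison of SAG GFP+ with RA GFP- adds the other two and shares their libraries, so it is no separate evidence. Between them 4 of the 6 genes were called lower (Msx3, Zic4, Lmx1a and Zic1), or 3 leaving Lmx1a aside, and 0 higher, with 5 lower and 0 higher both at an unadjusted p under 0.05 and with DESeq2. Of all genes tested, 28.5% were called, 12.0% higher and 16.5% lower, and the median of the 6 genes was -1.86 against -0.009. Msx3 fell by 4.67 on the log2 scale (SE 0.45, adjusted p = 2.55e-05). Lmx1a entered the test only through its counts in RA GFP-, so its call here is not support for a difference and is given as a value, with a log2 fold change of -3.25 (SE 0.74, adjusted p = 0.00705). Without RA GFP- replicate 1 it was -2.47 (SE 0.72, adjusted p = 0.0352). Zic4 had -2.12 (SE 0.48, adjusted p = 0.00661) and Zic1 -1.60 (SE 0.38, adjusted p = 0.00918), both with groups that did not overlap.

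Zic5 and Zic2 were not called there. For Zic5 the groups nearly touched, SAG GFP+ replicate 1 lying just below the lowest RA GFP- library. The Zic5 difference was -1.06 (SE 0.39, adjusted p = 0.0609). It was called with DESeq2 (-1.06, adjusted p = 0.0208), without the filter on low counts (-1.04, adjusted p = 0.00261) and without SAG GFP+ replicate 1 (-1.68, adjusted p = 0.00206), and its adjusted p ranged from 0.00206 to 0.196 over the alternatives. For Zic2, whose groups overlapped, it was -0.46 (SE 0.29, adjusted p = 0.259), and -0.94 (SE 0.20, adjusted p = 0.00464) without SAG GFP+ replicate 1. Gdf7 had a ratio of 0.542 (exact 95% interval 0.283 to 1.001, counting error only). With edgeR and no filter on low counts, its log2 fold change was -0.86 (SE 0.83, adjusted p = 0.564).

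SAG GFP+ replicate 1 also stood apart in the summed level of a list of pluripotent cell and epiblast genes, though not in each of them. The summed level of 9 such markers was 648.2 CPM in it, 231.3 and 264.9 in the other SAG GFP+ libraries, 165.1 to 228.7 in RA GFP+ and 786.8 to 1223 in RA GFP-. Pou5f1, the defining pluripotency factor of that list, was at 170.8, 37.4 and 39.3 CPM in SAG GFP+, at 3.70 to 6.70 in RA GFP+ and at 186.3 to 317.7 in RA GFP-. Dnmt3b (398.5, 165.7 and 185.1 CPM in SAG GFP+) and Pou5f1 made up most of the sum in replicate 1, and Fgf5 was also highest there. Esrrb (2.00, 2.44 and 1.71 CPM) and Nanog (26.9, 13.2 and 23.4) did not set it apart. Between SAG GFP+ and RA GFP+ the list split, with Pou5f1, Nanog and Tdgf1 higher and Zfp42, Esrrb and Klf4 lower. The sum was thus high in the same SAG GFP+ library as Zic2 and Zic5. Within RA medium, 5 of the 9 genes were lower in RA GFP+ than in RA GFP-. The part of the list in the Zic2 and Zic5 differences was not tested. For RA GFP+ replicate 3, highest for Zic1, Zic4 and Zic5, the 10 markers of hindbrain and spinal cord summed to 230.4 CPM, against 52.3 and 116.2 in the other RA GFP+ libraries. In the RA GFP- libraries that sum was 173.7, 175.2 and 322.1 CPM. Its part was likewise not tested.

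The balance among the 4 Zic genes was described as each gene's share of their summed per-kilobase level. Zic2 made up 46.5 ± 5.4% in RA GFP-, 62.9 ± 13.1% in RA GFP+ and 61.8 ± 11.8% in SAG GFP+, and Zic1 43.2 ± 4.1%, 30.4 ± 12.2% and 29.9 ± 14.1%. Zic5 held 9.0 ± 0.7%, 6.0 ± 0.6% and 7.7 ± 2.4%, and Zic4 1.4 ± 0.7%, 0.7 ± 0.3% and 0.6 ± 0.1%. The sum was 51.4, 38.6 and 42.5 CPM per kb in RA GFP-, 13.8, 16.8 and 21.9 in RA GFP+, and 31.4, 16.1 and 22.2 in SAG GFP+. Every RA GFP- library was above every GFP+ library in this sum, and the GFP+ groups overlapped.

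The ratio of Zic2 to its neighbour Zic5 per kilobase, on the log2 scale, was 2.52, 2.55 and 2.05 in RA GFP-, 3.77, 3.50 and 2.87 in RA GFP+, and 2.86, 3.12 and 3.12 in SAG GFP+. Both GFP+ groups lay above RA GFP- without overlap. The mean ratio differed by 1.01 between RA GFP+ and RA GFP- (exact two-sided permutation p = 0.1, the smallest that 3 against 3 libraries allow, and 0.3 adjusted over 9 such ratio tests). None of the 9 could pass at this size. The ratio of the overlapping neighbours Zic1 and Zic4 differed by 0.07 to 0.42 between groups (exact permutation p = 0.4 to 0.9), with libraries at 4.47 to 5.98 on the log2 scale.

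**Figure D3:**
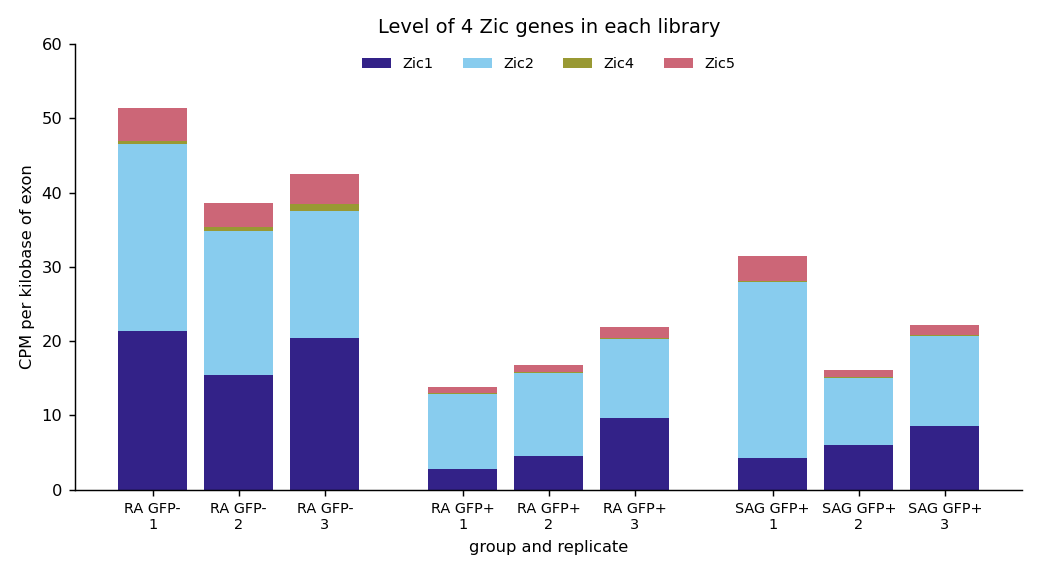
Stacked level of Zic1, Zic2, Zic4 and Zic5 in CPM per kilobase of exon (vertical) in each of the 9 libraries (horizontal). The stacks reach 38.6 to 51.4 in RA GFP- and 13.8 to 21.9 in RA GFP+, and Zic2 and Zic1 make up most of each.

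The GLI and GLIS relatives of the Zic genes gave no common direction. Of 6 tested, Gli1 and Glis2 were higher in RA GFP+ than in RA GFP-. Between SAG GFP+ and RA GFP+, Gli2 was higher and Glis3, Glis2 and Gli3 lower. Gli3, the main repressor arm of hedgehog signalling, was at 133.0, 139.3 and 146.2 CPM in RA GFP+ and at 77.3, 50.9 and 38.6 in SAG GFP+.

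The other genes of the roof plate were set beside the 7, as a list of 13 of which 12 could be tested. Within RA medium several were higher, where 5 of the 7 were lower. Called higher in RA GFP+ cells were 4 of 12 (Bmp7, Bmp5, Bmp4 and Msx1) and lower 0, with 4 higher and 1 lower at an unadjusted p under 0.05 and 4 and 0 with DESeq2. Their median log2 fold change was 0.41. With the replicate block in a fit of the 2 RA groups 8 were called. In that fit 32.2% of all genes tested were called, against 16.9% in the main fit. The 4 added were Lmx1b at 0.38, which was higher, and Wnt1 at -1.26, Wnt3a at -2.44 and Bmp6 at -0.94, which were lower. The adjusted p of these 4 were 0.0254, 0.0106, 0.00221 and 0.0407. With the block in the fit of all 9 libraries, none of the 12 changed its call within RA medium.

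BMP ligands and Msx1 were among these. Bmp4, a dorsalizing ligand of the roof plate and of surface ectoderm, was at 22.5, 13.0 and 10.5 CPM in RA GFP- and at 58.2, 42.4 and 43.2 in RA GFP+, with a log2 fold change of 1.64 (SE 0.33, adjusted p = 0.00537). The groups did not overlap. Bmp7 was at 17.4, 18.4 and 22.7 CPM in RA GFP- and 75.4, 77.3 and 72.9 in RA GFP+. Msx1, a BMP target that is also found in midbrain floor plate, was at 20.7, 9.87 and 13.9 CPM in RA GFP- and 76.8, 37.1 and 59.2 in RA GFP+. Its log2 fold change was 1.96 (SE 0.51, adjusted p = 0.0198). That call ended on leaving out replicate 2 or 3 of RA GFP- (1.74 and 1.92, adjusted p = 0.0798 and 0.0607) or replicate 1 of RA GFP+ (1.70, adjusted p = 0.0761). Msx1 thus rose where Msx3 fell, while Msx2 (log2 fold change -0.49, adjusted p = 0.28) was not called.

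In SAG medium much of the list was lower. Between SAG GFP+ and RA GFP+, 6 of 12 were lower (Bmp4, Msx2, Msx1, Lmx1b, Bmp7 and Gdf6) and 0 higher, as also at an unadjusted p under 0.05 and with DESeq2, with a median of -1.36. Bmp4 was at 0.611, 0.112 and 0.506 CPM in SAG GFP+, a log2 fold change of -6.87 (SE 0.46, adjusted p = 3.47e-06). Msx1 was at 3.01, 0.674 and 0.350 CPM (-5.43, SE 0.62, adjusted p = 9.5e-05), and at -6.78 without SAG GFP+ replicate 1. Msx2 was at 7.21, 5.18 and 5.65 CPM in RA GFP+ and at 0.570, 0.262 and 0.545 in SAG GFP+ (-3.70, SE 0.34, adjusted p = 2.47e-05). All 3 Msx genes were therefore lower in SAG GFP+ than in RA GFP+, with no overlap. Lmx1b, the paralog of Lmx1a, was at 34.3, 38.0 and 33.0 CPM in RA GFP-, 46.4, 55.3 and 36.9 in RA GFP+ and 9.45, 18.7 and 14.5 in SAG GFP+ (-1.70, SE 0.23, adjusted p = 0.000344 between the GFP+ groups). The Gdf6 call (-2.61, adjusted p = 0.0385) was lost without any one of 5 libraries, up to an adjusted p of 0.159 without RA GFP+ replicate 2.

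Against RA GFP-, SAG GFP+ cells had 7 of these 12 lower (Msx2, Bmp4, Msx1, Lmx1b, Gdf6, Bmp6 and Wnt1) and 2 higher (Bmp7 and Bmp5), with a median of -1.99. The Gdf6 and Bmp6 calls ended without SAG GFP+ replicate 2 (adjusted p = 0.0529 and 0.0582), and that of Gdf6 also without SAG GFP+ replicate 3 (0.0613) or RA GFP- replicate 1 (0.0536). Gdf6 would not have passed the filter on low counts without RA GFP-, so its call here is not support for a difference. It had 37, 25 and 14 counts in RA GFP-, 3, 32 and 22 in RA GFP+ and 4, 3 and 1 in SAG GFP+. Wnt1, a dorsal midline ligand, was at 4.27, 2.40 and 5.03 CPM in RA GFP-, 1.29, 0.840 and 3.17 in RA GFP+ and 0.0407, 0.487 and 1.17 in SAG GFP+. Its call (-2.77, SE 0.76, adjusted p = 0.0179) ended on leaving out RA GFP- replicate 1, with an adjusted p of 0.051, or SAG GFP+ replicate 2, with 0.0691. Wnt3a, another roof plate ligand, was at 10.5, 4.12 and 5.98 CPM in RA GFP-, 0.745, 0.605 and 2.79 in RA GFP+, and 3.50, 0.0375 and 0 in SAG GFP+, where replicate 1 held nearly all of it. It was not called in the main test of any comparison. Without the filter on low counts it was called lower in RA GFP+ (adjusted p = 0.000692) and SAG GFP+ (adjusted p = 0.000118) than in RA GFP-. Without SAG GFP+ replicate 1 it was called lower in SAG GFP+ than in RA GFP+ (adjusted p = 0.0055) and than in RA GFP- (adjusted p = 0.000437). In that setting it was also called lower in RA GFP+ than in RA GFP- (-2.31, adjusted p = 0.0161). The fit of the 2 RA groups alone, with no block, called it lower in RA GFP+ as well (-2.31, adjusted p = 0.0232). Rspo2 was too low to test.

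**Figure D4:**
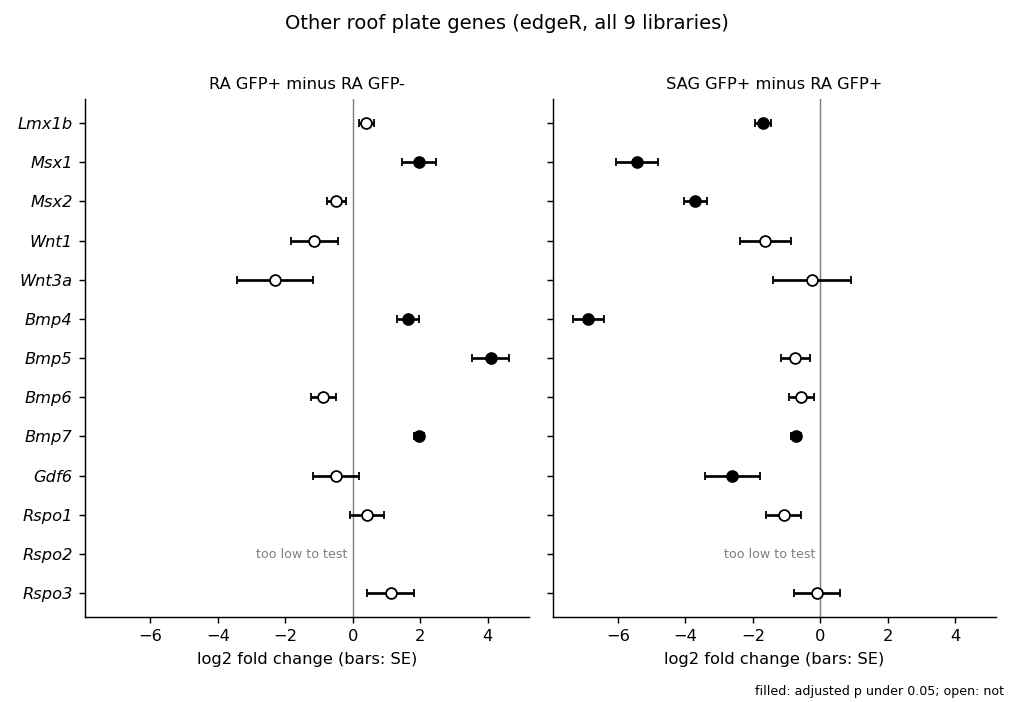
Log2 fold change (horizontal, bars are SE) of 13 other roof plate genes within RA medium (left) and between the GFP+ groups (right); filled points have an adjusted p under 0.05, and Rspo2 was too low to test. On the left 4 genes are filled and above 0; on the right 6 are filled and below 0.

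The cells' BMP response genes, mainly Id factors and inhibitory SMADs, were set beside these ligands. Of 7, Bambi was higher in RA GFP+ than in RA GFP-, and Smad7, Smad6, Id3, Bambi and Id1 were lower in SAG GFP+ than in RA GFP+. Id3 was at 221.3, 175.5 and 218.8 CPM in RA GFP-, 142.2, 122.1 and 167.5 in RA GFP+ and 80.6, 73.8 and 55.1 in SAG GFP+. Of 10 BMP receptors and SMADs, 2 were higher in RA GFP+ than in RA GFP- and 0 were lower, with 3 higher and 0 lower both at an unadjusted p under 0.05 and with DESeq2. Between the GFP+ groups 0 were called with edgeR, and 1 was higher at an unadjusted p under 0.05 and 1 with DESeq2.

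Most dorsal progenitor genes were lower in RA GFP+ as well. Of 10 tested genes of dorsal progenitors and dI1 neurons, 7 were lower in RA GFP+ (Pax3, Neurog1, Gsx2, Neurog2, Gsx1, Ptf1a and Pax7) and 1 higher (Barhl2), with a median of -2.39. Gsx2 and Gsx1 passed the filter on low counts only through RA GFP-, so their calls are not support for a difference. Gsx2 had 74, 65 and 64 counts there and 0, 7 and 0 in RA GFP+. Barhl2 would not have passed without RA GFP+, so its calls are not support either. It had 123, 130 and 41 counts in RA GFP+, 20, 14 and 5 in RA GFP- and 2, 1 and 3 in SAG GFP+. Pax3, which marks the dorsal neural tube, was at 43.1, 61.9 and 59.5 CPM in RA GFP-, 10.8, 8.54 and 14.7 in RA GFP+ and 0.285, 0 and 0 in SAG GFP+. Pax7, its paralog, was at 25.8, 40.1 and 62.7 CPM, then 9.72, 12.4 and 25.1, then 0.978, 0.375 and 0.156 in the same order. The 3 groups of both genes did not overlap, in the order shown by Msx3. Between the GFP+ groups the list split, with Pax3, Pax7, Barhl2 and Ptf1a lower and Olig3 higher in SAG GFP+. Atoh1, which marks the progenitors next to the roof plate, was at most 0.114 CPM in RA GFP- and at 0 in all GFP+ libraries.

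Markers of other cells moved with the sort and the medium as well. Within RA medium, 7 of 7 tested genes of endoderm and surface ectoderm were higher in RA GFP+, and the list summed to 195.0 to 232.0 CPM there against 38.3 to 86.6 in RA GFP- and 19.7 to 35.0 in SAG GFP+. Afp was at 0 in all RA GFP- and SAG GFP+ libraries and Krt14 in all RA GFP+ and SAG GFP+ libraries. Afp, with 22, 54 and 16 counts in RA GFP+, entered the test only through that group. Its call is thus not support for a difference. Krt5 and Krt14 were too low to test. All 7 neuronal genes were lower in RA GFP+, with sums of 76.1 to 87.2 CPM against 286.8 to 411.1 in RA GFP- and 351.1 to 573.2 in SAG GFP+. Of 8 neural crest genes, 2 were higher and 4 lower in RA GFP+. Foxd3, among the lower, entered the test only through RA GFP-. It had 91, 72 and 16 counts there and 0, 4 and 1 in RA GFP+. The neural crest list summed to 82.9 to 92.1 CPM in RA GFP-, 92.0 to 102.0 in RA GFP+ and 48.2 to 96.0 in SAG GFP+. Of 8 genes of paraxial mesoderm and mesenchyme, 4 were higher and 1 lower in RA GFP+, with sums of 47.3 to 81.4 CPM there, 30.5 to 36.4 in RA GFP- and 32.8 to 44.6 in SAG GFP+. The midbrain floor plate list holds Lmx1b, Msx1 and Msx2 and so overlaps the roof plate list. It also holds Foxa2, the gene behind the reporter, so the sort fixes part of its sum. That sum was 72.5 to 85.3 CPM in RA GFP-, 315.0 to 358.1 in RA GFP+ and 253.2 to 363.5 in SAG GFP+. Foxa2 alone was at 132.8 to 184.4 CPM in RA GFP+ and at 204.6 to 326.4 in SAG GFP+. Choroid plexus, a derivative of the roof plate, had 2 of 6 markers tested, with Clic6 higher and Folr1 lower in RA GFP+ than in RA GFP- and both lower in SAG GFP+ than in RA GFP+. Of its other markers, Kcne2 was at 0 in all RA GFP- and SAG GFP+ libraries and Ttr in all RA GFP- libraries. The part of these cells in the differences of the 7 genes was not tested.

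Floor plate and ventral genes were mostly higher in RA GFP+, as the sort fixes for Foxa2. Of 9, 8 were higher in RA GFP+ than in RA GFP-, with sums of 733.1 to 1035 CPM against 156.7 to 208.6. The 10 markers of forebrain and midbrain had 2 higher and 2 lower in RA GFP+, and 1 higher and 5 lower in SAG GFP+ than in RA GFP+. Of 10 hindbrain and spinal cord genes, 7 were higher (Egr2, Hoxa2, Hoxb2, Hoxb1, Hoxb9, Hoxc6 and Hoxa3) and 2 lower (Hoxb5 and Hoxb4) in SAG GFP+ than in RA GFP+. The 2 media thus differed in genes of position along the body axis as well.

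**Figure D5:**
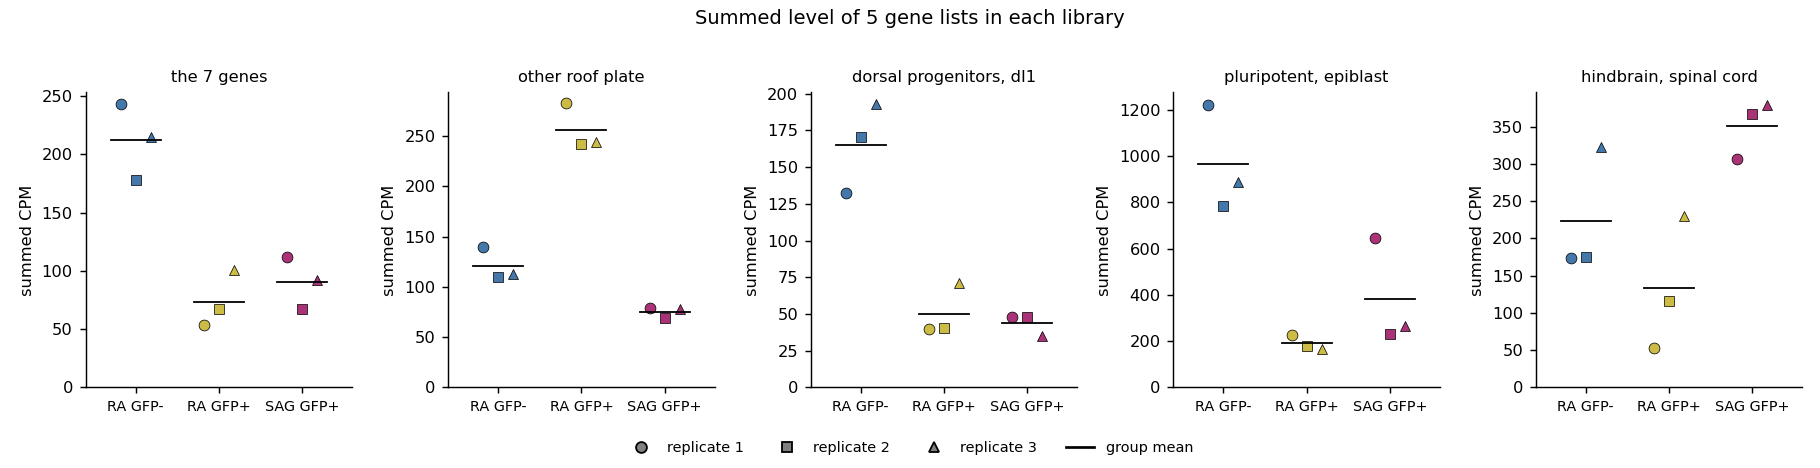
Summed CPM (vertical) of the 7 genes and of 4 gene lists in the 9 libraries by group (horizontal); symbols are replicates and lines group means. The 7 genes sum to 178.2 to 243.7 CPM in RA GFP- and 53.2 to 101.0 in RA GFP+, while the other roof plate genes are highest in RA GFP+, at 241.6 to 282.6.

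How alike the patterns were was measured as the root mean square difference in log2 CPM over the 9 libraries, after subtracting each gene's own mean. Among the 15 pairs of the 6 tested genes, the smallest differences were those between genomic neighbours, 0.46 for Zic1 and Zic4 and 0.49 for Zic2 and Zic5. The other Zic pairs lay at 0.55 to 0.89. Msx3 differed by 1.12 to 1.73 from each of the other genes, and Lmx1a by 1.02 to 1.19. These are descriptions over libraries that share 3 groups, and Zic1 and Zic4 also share the exon bases given above.

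Genes outside the 7 with the nearest pattern were sought among 11176 with a mean of at least 5 CPM. The closest to Zic1 were Ndrg1 (0.25), Crabp2, a retinoic acid binding protein (0.35), and Porcn, which modifies Wnt ligands (0.35). Crabp2 had group means of 522.5, 218.9 and 206.7 CPM in RA GFP-, RA GFP+ and SAG GFP+. Closest to Zic2 were Zscan10 (0.19), a zinc finger factor known from pluripotent cells, Ebp (0.22) and Nefh (0.23). Closest to Zic4 were Disp3 (0.29), Pou2f2 (0.34) and Syngr1 (0.38), and to Zic5 Mkrn1 (0.29), Slc35f2 (0.32) and Pced1b (0.32). Msx3 had En2 (0.49), Adap1 (0.50) and Tdrd12 (0.56) nearest. En2, a homeodomain factor of midbrain and anterior hindbrain, was at 25.2, 14.1 and 22.7 CPM in RA GFP-, 2.23, 2.32 and 5.23 in RA GFP+ and 1.67, 0.674 and 1.13 in SAG GFP+. Lmx1a, with few counts, had Rhof (0.46), Hspb8 (0.46) and Cdo1 (0.49).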

How the data were processed

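Poly(A) RNA of 9 sorted populations was sequenced with a directional kit, per the labels' protocols. The authors deposited raw counts per Ensembl mouse gene for all 9 libraries. The submitters' processing notes list Trim Galore 0.5.0, Bowtie2 2.3.4.1, featureCounts of Subread 1.6.2 and GRCm38. Not given in the sources used here are the strand setting, the annotation release and the handling of multi-mapping reads. The RA dose reads 250 nM in the series' design and 250 µM in the treatment protocol, which was not settled, and SAG is named in sample titles alone, with no dose.

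Symbols and positions were added from GENCODE M21 (54495 of 54532 genes). Counts were tested with edgeR 4.0.16 (R 4.3.3), fitting the 3 group means over the 9 libraries at once after TMM scaling (factors 0.972 to 1.029) and filterByExpr with a minimum count of 10. The biological coefficient of variation was 0.226, with 6 residual degrees of freedom. SE is the size of the log2 fold change over the square root of F. The fit was tested on simulated data with 200 changed genes. Ratios of Gdf7 counts have exact binomial intervals. Alternatives were DESeq2 1.42.0, other scalings, no filter, fits of 2 groups, the replicate block and leaving out each library.

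The members, the gene lists and the rule for named genes were chosen with earlier results of these data known. The rule names the 7 genes, Foxa2, the list members, and the 3 nearest patterns per tested gene. List members beyond the 2 with the smallest p were named after their values were seen, to show what made up a count. A few listed genes are not reported here and were left out of the list counts and sums after the first analysis. Replicate numbers come from the labels. Deviations from group means correlated between same-numbered RA GFP- and RA GFP+ libraries (r = 0.273, 0.307 and 0.347 across genes), so the numbers were taken to pair the RA libraries.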

Additional observations from a re-analysis of the deposited data

How the results depend on the processing

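Each log2 fold change of the 6 tested genes was recomputed under up to 16 alternatives. Of 286 such values, 267 kept their direction and side of the threshold, 6 lost the call (all Zic2 within RA medium, given above), 8 gained one and 5 changed sign. The sign changes were of uncalled differences between SAG GFP+ and RA GFP+ on leaving out 1 library, where Zic1 ranged from -0.17 to 0.78 and Zic4 from -0.31 to 0.72; the cause was not tested. Msx3 was called in every comparison under all alternatives run. Between SAG GFP+ and RA GFP+, 2 of the 7 genes were called without the filter on low counts (Msx3 and Zic5) and 2 with the replicate block (Msx3 and Lmx1a, at -2.11, adjusted p = 0.0408), where 15.8% and 32.0% of all genes tested were called. Same-numbered SAG GFP+ and RA libraries did not all deviate together (r = -0.082 to 0.182 with RA GFP+ and -0.022 to 0.242 with RA GFP-), so there the numbers name samples only; with the block, Zic5 was called against RA GFP- (-1.14, adjusted p = 0.0281, and -1.22, adjusted p = 0.0135 in the fit of these 2 groups). Over all genes, the call count within RA medium was 5240 with the replicate block in a fit of the 2 groups, and 1783 (without RA GFP+ replicate 2) to 3368 (without SAG GFP+ replicate 1) on leaving out a library. In other counts of the 7 genes and of all genes the block moved nothing by over 1.5 times. No scaling moved the median of all genes by over 0.1 on the log2 scale. Depth limits Lmx1a and Gdf7, which had 129 and 68 counts in all 9 libraries.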
